A study of Gallus gallus with 4 samples.

Results

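The granulosa cells of the F5 follicle of the hen were compared by their position on the yolk, proximal to the germinal disc against distal to it. Each side was 1 library of poly-A selected RNA from hens (Gallus gallus) aged 10 to 15 months. Genes entered the comparison where their mean was at least 1 FPKM (fragments divided by gene length and library total) over the F5 proximal, F5 distal, F1 proximal and F1 distal libraries, which kept 11203 of 19309 genes. F1 is the follicle nearest to ovulation and F5 an earlier one of the same hierarchy. The labels give neither the number of hens and follicles behind a library nor the distance from the disc at which cells were taken. With 1 library a side there is no replicate check, so sizes are described, no test was run, and every value is that of 1 library.

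Granulosa cells form a single layer around the oocyte of a hen follicle, make progesterone before ovulation and secrete proteins of the inner egg coat. The germinal disc is the patch of oocyte cytoplasm under that layer that holds the nucleus, and the oocyte secretes growth factors of the bone morphogenetic protein (BMP) family that granulosa cells read through paired kinase receptors and SMAD proteins. In hens, granulosa cells near the disc are known for more division and less steroid output than those farther away.

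By totals recovered from the FPKM ratios, the F5 proximal library held 16654793 reads and the F5 distal library 17351242. At least 1 read was found for 15979 genes in the proximal and 15277 in the distal library. Reads of the mitochondrial genome made up 7.71% of the proximal and 7.31% of the distal library. The granulosa label held on both sides. FOXL2, the transcription factor that maintains ovarian identity, stood at 1055 FPKM in proximal against 861 FPKM in distal cells. INHA, the inhibin alpha subunit, stood at 5100 FPKM in proximal cells and 5480 in distal cells, and FSHR, the receptor of follicle-stimulating hormone, at 47.6 FPKM in proximal against 43.3 FPKM in distal cells. Of 18 genes listed for granulosa identity 17 were found, 15 were kept, and their median difference was 0.13 on the log2(FPKM + 1) scale. WT1, a transcription factor of early follicle cells, was the exception among them, at 4.62 FPKM in proximal cells and 0.376 in distal cells (283 proximal and 24 distal reads).

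Most genes differed little between the sides, and the large differences lay mainly on the proximal side. The difference, proximal minus distal in log2(FPKM + 1), had a median of 0.07, and 92.9% of genes lay within 1.5-fold. At least 2-fold on that scale, 244 genes (2.18%) were higher and 36 genes (0.321%) were lower in proximal cells. A smaller difference in either direction was the rule, with 63% of genes above 0 and 36.9% below 0. The added 1 FPKM understates the fold of low genes, so single genes are also given as FPKM ratios with a 95% exact binomial interval from the reads behind them, which covers counting error only.

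The 2 sets differed in make-up. Of the 244 higher genes 162 had a usable symbol, 47 differed at least 4-fold, and the counting interval of 217 excluded 1. Of the 36 lower genes 8 had a symbol (FMOD, CNN2, ADCY6, TPBG, DPP6, BMP2, CLPS and STC1), none reached 4-fold, and the interval of 16 excluded 1. The lower set also lay largely among short genes. In the shortest of 4 equal classes, by the length that the FPKM values imply, were 31 of the 36 lower and 100 of the 244 higher genes. Both sets were mostly of low level. The median F5 mean was 4.16 FPKM for the higher and 2.68 FPKM for the lower genes, against 12.4 FPKM over all genes kept. Of the higher genes 1, ID1, had a mean above 100 FPKM. Just past the 2-fold limit on the higher side stood CCK at 1.69 FPKM in proximal against 0.341 FPKM in distal cells, and just short of it NRTN at 3.12 FPKM in proximal cells and 1.06 in distal cells. On the lower side STC1 fell just inside the limit and SPINK4 just outside.

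**Figure D1:**
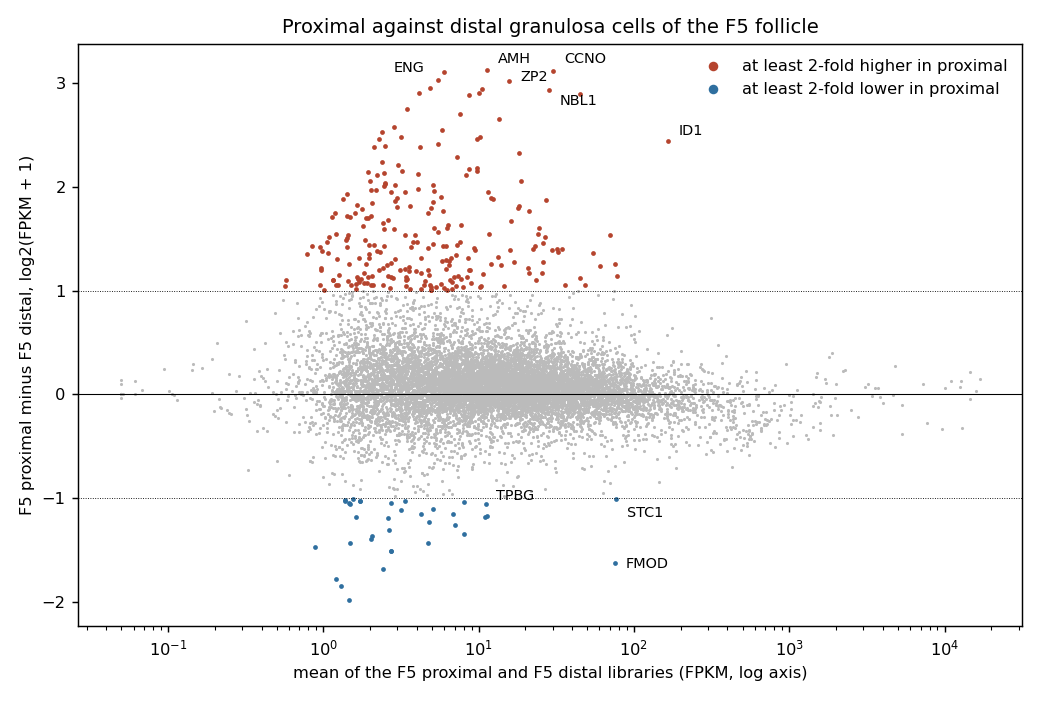
Difference between F5 proximal and F5 distal cells (log2(FPKM + 1), vertical axis) against the mean FPKM of both libraries (log axis), 1 point per gene for 11203 genes, with dotted lines at 2-fold. The 244 genes higher in proximal cells reach a difference of 3.12, whereas the 36 lower ones end at -1.98.

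AMH and genes that sense or restrain BMP signals held several of the largest differences. AMH, the anti-Müllerian hormone of small follicles (chromosome 28 in the authors' coordinates), stood at 21.2 FPKM in proximal against 1.55 FPKM in distal cells, a ratio of 13.7 (10.8 to 17.5). The genes of the related hormones did not share this: INHBA, an activin subunit, had 17.5 FPKM in proximal cells and 19.8 in distal cells, and INHBB, another, had 378 FPKM in proximal against 449 FPKM in distal cells. Of 9 kept genes listed for AMH, inhibin and activin, AMH alone passed 2-fold, as 2.18% of all genes did in that direction. Their median difference was -0.12.

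Among BMP ligands and receptors the co-receptor and the oocyte ligand stood apart from the core receptors. ENG, endoglin, a co-receptor for BMP ligands that is best known from endothelium, had 11.5 FPKM in proximal cells and 0.447 in distal cells, a ratio of 25.8 (15.4 to 46.5) on 371 proximal and 15 distal reads. BMP6, a ligand that missed the filter and was added after its values were seen, had 49 proximal and 3 distal reads. BMP15, a ligand made by oocytes, had 6.78 FPKM in proximal against 0.156 FPKM in distal cells (208 proximal and 5 distal reads). The most abundant kinase receptors and signal carriers of the list were near equal. BMPR1B had 66.2 FPKM in proximal cells and 70.8 in distal cells, BMPR-II 110 FPKM on both sides, and SMAD5 221 FPKM in proximal against 237 FPKM in distal cells. SMAD9, a signal carrier of low level, was not, at 1.21 FPKM in proximal cells and 0.364 in distal cells. Its ratio was 3.31 (1.65 to 7.24) on 35 proximal and 11 distal reads. BMP2, a ligand, ran the other way, at 4.90 FPKM in proximal cells and 11.1 in distal cells. Of 18 genes found in this list 12 were kept. On the log2(FPKM + 1) scale 2 were at least 2-fold higher and 1 lower (2.18% and 0.321% of all genes). The 2 higher genes, ENG and BMP15, had at most 0.447 FPKM in either distal library. They passed the level filter only through the proximal libraries, so this count leans on the filter. The list's median was 0.08. That median came to -0.03 when the libraries were scaled by median ratios, a scaling that shifts the median of all genes by -0.10.

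Some targets and inhibitors of BMP signalling were far higher in proximal cells while their close relatives were not. ID1, a helix-loop-helix inhibitor that BMP signals induce, stood at 280 FPKM in proximal against 50.5 FPKM in distal cells, a ratio of 5.54 (5.04 to 6.10). ID3, its relative, had 214 FPKM in proximal cells and 137 in distal cells, and ID2 had 506 FPKM in proximal against 462 FPKM in distal cells. The 3 ID genes thus differed by unequal amounts. SMAD6, an intracellular brake on the pathway, had 11.6 FPKM in proximal cells and 3.56 in distal cells, while SMAD7, the other such brake, had 18.5 FPKM in proximal against 16.6 FPKM in distal cells. Secreted antagonists went both ways. NBL1 had 51.1 FPKM in proximal cells and 5.83 in distal cells, and CHRDL1 had 5.59 FPKM in proximal against 0.426 FPKM in distal cells. GREM1, by contrast, had 1.56 FPKM in proximal cells and 3.73 in distal cells (22 proximal and 55 distal reads). Noggin, from NOG, was near equal at 128 FPKM in proximal against 120 FPKM in distal cells. With MSX1, a homeobox target at 2.30 FPKM in proximal cells and 0.125 in distal cells (53 proximal and 3 distal reads), 5 of 17 kept genes were at least 2-fold higher and none lower, against 2.18% and 0.321% of all genes, and the median was 0.15. MSX1 had at most 0.125 FPKM in either distal library and passed the level filter only through the proximal libraries. This count thus leans in part on the filter.

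**Figure D2:**
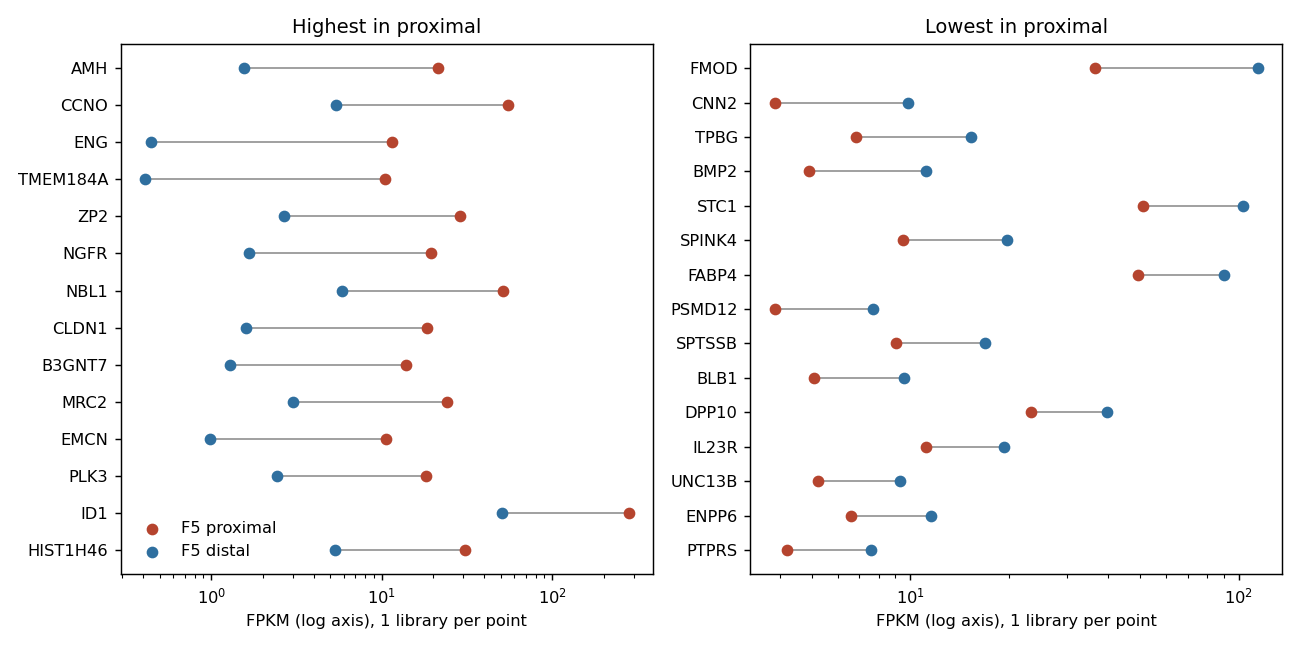
FPKM (log axis) in F5 proximal and F5 distal cells for 14 of the 15 genes with the highest (left) and the 15 with the lowest difference (right) among genes with a symbol that averaged at least 5 FPKM over the F5 libraries. ID1 at 280 FPKM in proximal cells and FMOD at 115 FPKM in distal cells have the highest levels on their sides.

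Several transcripts best known from oocytes were found in the proximal library at low levels and had few reads in the distal one. DAZL, an RNA-binding protein of germ cells, had 3.81 FPKM in proximal against 0.0857 FPKM in distal cells (128 proximal and 3 distal reads). C-MOS, the kinase that holds eggs in meiotic arrest, had 2.80 FPKM in proximal cells and 0.165 in distal cells, and KPNA7, an importin of oocytes, had 3.21 FPKM in proximal against 0.369 FPKM in distal cells. NOBOX, an oocyte transcription factor, missed the level filter and was added after its values were seen. It had 28 reads in proximal and 0 reads in distal cells, a ratio of at least 9.72 against a floor of 3 reads per library. Not every germ cell gene was present. DDX4, the vasa helicase, was at 0 in both libraries, and GTSF1, a factor of the piRNA pathway, had 4.54 FPKM in proximal cells and 5.09 in distal cells. Of 20 listed genes 12 were found and 7 kept, of which 4 were at least 2-fold higher (2.18% of all genes) and none lower. These 4, BMP15, DAZL, C-MOS and KPNA7, had at most 0.369 FPKM in either distal library. They passed the level filter only through the proximal libraries, so the count leans on the filter. The list's median of 1.62 came to 0.68 with no filter and to 0.12 with a mean of at least 5 FPKM. BUB1B, the kept gene of the list with the highest level, also serves mitosis in dividing cells and had 16.0 FPKM in proximal cells and 12.1 in distal cells. The reads of the 12 genes made up 0.0105% of the proximal library (0.0100% to 0.0110%) and 0.00602% of the distal one (0.00566% to 0.00639%, exact binomial intervals). BUB1B alone gave 942 of these 1750 proximal and 742 of these 1044 distal reads, so both shares are largely its own. Whether oocyte material in the proximal sample has a part in these or other differences was not tested. Further genes with known roles in eggs and germ cells were singled out after their values were seen: WEE2, a meiotic kinase, had 6.09 FPKM in proximal against 0.266 FPKM in distal cells, and NANOS1, a translational repressor, had 4.62 FPKM in proximal cells and 0.277 in distal cells.

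Egg coat genes were not alike. ZP2, a coat protein that bird oocytes are known to make early, had 28.8 FPKM in proximal against 2.68 FPKM in distal cells, a ratio of 10.8 (8.92 to 13.1). ZP4, which missed the filter and was added after its values were seen, had 2.05 FPKM in proximal cells and 0.207 in distal cells. ZP3 and ZPD, the coat proteins known from granulosa cells of birds, had levels that were far higher and near equal. ZP3 stood at 14379 FPKM in proximal against 14816 FPKM in distal cells, and ZPD at 1793 FPKM in proximal cells and 1619 in distal cells.

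Some tight junction and epithelial genes were higher in proximal cells. CLDN1, a barrier-forming claudin of tight junctions, had 18.5 FPKM in proximal against 1.61 FPKM in distal cells, a ratio of 11.5 (8.32 to 16.3). CLDN5, the claudin of vessel walls, had 30.9 FPKM in proximal cells and 6.64 in distal cells, and CLDN11 had 4.91 FPKM in proximal against 0.524 FPKM in distal cells. The general junction genes did not follow: CDH2, the cadherin of granulosa cells, had 91.0 FPKM in proximal cells and 96.8 in distal cells, and GJA1, the main gap junction protein, had 301 FPKM in proximal against 358 FPKM in distal cells. Of 16 kept junction genes 3 were at least 2-fold higher (2.18% of all genes) and none lower, with a median of 0.16. One of the 3, CLDN11, had at most 0.524 FPKM in either distal library. It passed the level filter only through the proximal libraries, so this count leans in part on the filter. EPCAM, an epithelial adhesion protein, had 29.0 FPKM in proximal cells and 7.54 in distal cells, and KRT19, an epithelial keratin, 4.19 FPKM in proximal against 0.646 FPKM in distal cells. CDH3, the placental cadherin, was singled out after its values were seen, at 85.8 FPKM in proximal against 35.7 FPKM in distal cells. LRRN4, a marker listed with EPCAM for the ovarian surface, had 478 FPKM in proximal cells and 542 in distal cells, and KRT18 was at 0 in both.

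CCNO and MCIDAS, 2 genes that drive the making of multiple cilia, differed together. In the authors' coordinates, for which the labels name no build, they lie on the minus strand of chromosome Z with 888 bases between them, CCNO at 16589252 to 16590557 and MCIDAS at 16586708 to 16588363. CCNO had 55.0 FPKM in proximal against 5.43 FPKM in distal cells (ratio 10.1, 8.30 to 12.4). MCIDAS had 3.52 FPKM in proximal cells and 0.388 in distal cells (61 proximal and 7 distal reads). Cilia structure genes were mostly low: of 20 found genes of this list 6 were kept. Of these 3 were at least 2-fold higher (2.18% of all genes), this pair and CCDC40, a ruler protein of the ciliary axoneme. CCDC40 had 1.97 FPKM in proximal against 0.429 FPKM in distal cells. MCIDAS and CCDC40 had at most 0.711 FPKM in either distal library. They passed the level filter only through the proximal libraries, so this count also leans on the filter. The list's median of 0.70 came to 0.02 with no filter and to 0.24 with a mean of at least 5 FPKM. RFX2, a regulator of cilia genes, had 38.6 FPKM in proximal cells and 39.2 in distal cells, and DNAH5, an outer arm dynein, had 0.0173 FPKM in proximal against 0.0166 FPKM in distal cells.

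Several other signalling genes were higher in proximal cells, while some other members of their pathways were near equal. NGFR, the low-affinity neurotrophin receptor, had 19.4 FPKM in proximal cells and 1.66 in distal cells, a ratio of 11.7 (9.88 to 13.9). Its kinase partner NTRK2 had 6.63 FPKM in proximal against 7.49 FPKM in distal cells. Of 5 kept neurotrophin genes and receptors 4 lay above 0, where 63% of all genes did, with a median of 0.76. That median depended on which genes were kept, at 0.19 with no filter and 1.39 with a mean of at least 5 FPKM. BDNF, a neurotrophin that missed the filter and was added after its values were seen, had 2.43 FPKM in proximal cells and was at 0 in distal cells. In the WNT list WNT6, a ligand, had 28.4 FPKM in proximal cells and 7.43 in distal cells, and FRZB, a secreted WNT binder, had 43.1 FPKM in proximal against 15.8 FPKM in distal cells. They were the 2 of 23 kept WNT genes past 2-fold on the log2(FPKM + 1) scale, where 2.18% of all genes were higher. Of the 23 genes 9 lay above 0 and 14 below, down to -0.51, against 63% and 36.9% of all genes. WNT4, the most abundant WNT ligand of the list in both F5 libraries, had 1600 FPKM in proximal cells and 1624 in distal cells, and AXIN2, a target of the pathway, had 11.3 FPKM in proximal against 11.9 FPKM in distal cells.

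Of 11 kept Notch genes 2 were at least 2-fold higher (2.18% of all genes), both of the HES group of repressors that Notch induces. HES1 had 3.57 FPKM in proximal cells and 0.983 in distal cells, and HAIRY1 had 9.96 FPKM in proximal against 4.01 FPKM in distal cells. With at most 0.983 FPKM in either distal library, HES1 passed the level filter only through the proximal libraries. The count of Notch genes therefore leans on the filter. HEYL, a related repressor that missed the filter and was added after its values were seen, had 2.26 FPKM in proximal against 0.0602 FPKM in distal cells. The receptor NOTCH2 had 29.5 FPKM in proximal cells and 34.4 in distal cells. Of 11 kept genes of EGF signalling 2 were also at least 2-fold higher, against the same 2.18% of all genes. These were HBEGF, a ligand, with 4.05 FPKM in proximal against 1.13 FPKM in distal cells, and DUSP4, a phosphatase that damps MAP kinases, with 10.7 FPKM in proximal cells and 3.60 in distal cells. EGFR, the receptor, had 41.6 FPKM in proximal against 48.8 FPKM in distal cells. In the Hedgehog list none of 9 kept genes passed 2-fold in either direction, and IHH, its ligand, had 617 FPKM in proximal cells and 619 in distal cells.

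Enzymes that turn cholesterol into progesterone were lower in proximal cells, by less than 2-fold. CYP11A1, which cleaves the cholesterol side chain, had 133 FPKM in proximal against 202 FPKM in distal cells, a ratio of 0.658 (0.641 to 0.677). HSD3B2, which makes progesterone, had 498 FPKM in proximal cells and 682 in distal cells, and STAR, which feeds cholesterol into mitochondria, had 83.2 FPKM in proximal against 96.2 FPKM in distal cells. NR0B1, a repressor of steroid synthesis genes, ran the other way at 50.3 FPKM in proximal cells and 18.4 in distal cells, as did HSD17B1, an estrogen-forming enzyme, at 29.5 FPKM in proximal against 14.7 FPKM in distal cells. NR0B1 was the one gene of 15 kept steroid genes past 2-fold on the log2(FPKM + 1) scale, where 2.18% of all genes were higher. CYP19A1, aromatase, was near 0 on both sides. LHCGR, the receptor of luteinizing hormone, had 32.9 FPKM in proximal cells and 29.3 in distal cells. Of 18 kept genes of gonadotropin and cAMP signalling ADCY6, an adenylate cyclase, was the one past 2-fold on that scale, where 0.321% of all genes were lower. It had 2.28 FPKM in proximal against 6.27 FPKM in distal cells (15 proximal and 43 distal reads).

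Genes of cholesterol synthesis and uptake were lower as a group. Of 23 kept genes 19 lay below 0, where 36.9% of all genes did, and 4 above, with a median of -0.27, and none reached 2-fold. LSS, which closes the sterol rings, had 68.8 FPKM in proximal against 97.7 FPKM in distal cells, and NPC2, a lysosomal cholesterol carrier, had 4631 FPKM in proximal cells and 6033 in distal cells. NPC1, its membrane partner, was the highest of the list in the other direction, at 221 FPKM in proximal against 179 FPKM in distal cells.

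Fatty acid carriers split. FABP3 had 5.22 FPKM in proximal cells and 0.778 in distal cells, FABP7 had 8.65 FPKM in proximal against 2.26 FPKM in distal cells, and DGAT2, which forms triglycerides, had 25.3 FPKM in proximal cells and 7.23 in distal cells. FABP4 had 49.5 FPKM in proximal against 90.4 FPKM in distal cells, and FABP5 had 67.5 FPKM in proximal cells and 106 in distal cells. PLTP, a phospholipid carrier, had 232 FPKM in proximal against 346 FPKM in distal cells. Thus the 2 FABP genes of low level were higher and the 2 abundant ones lower on the proximal side. Of 15 kept genes of the list 3 were at least 2-fold higher (2.18% of all genes) and none lower. Among the 3, FABP3 had at most 0.778 FPKM in either distal library. It passed the level filter only through the proximal libraries, so this count leans in part on the filter.

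Ribosomal protein genes were lower in proximal cells almost without exception. Of 63 kept genes 62 lay below 0, against 36.9% of all genes, and 1 above, with a median of -0.36, and none reached 2-fold. Their reads made up 2.20% of the proximal library (2.19% to 2.21%) and 2.83% of the distal one (2.82% to 2.83%). RPL7 had 323 FPKM in proximal cells and 473 in distal cells, and RPS7 had 256 FPKM in proximal against 370 FPKM in distal cells. The exception, RPL7L1, is a ribosome assembly factor rather than a ribosomal subunit and had 87.5 FPKM in proximal cells and 79.1 in distal cells. Of 50 nuclear genes of oxidative phosphorylation 40 lay below 0, with a median of -0.12, and of 30 genes of protein folding in the endoplasmic reticulum 23 did, with a median of -0.05, again against 36.9% of all genes. That 36.9% covers genes of every level, and the difference fell with level. The median was 0.11 for genes with an F5 mean below 5 FPKM and -0.07 for the 718 genes of at least 100 FPKM. Whether level has a part in the shares of these lists was not tested. Of 32 kept glycolytic and hypoxia genes 2 were at least 2-fold higher on the log2(FPKM + 1) scale (2.18% of all genes) and none lower. Their median was -0.03. CA9, a carbonic anhydrase that low oxygen induces, had 47.5 FPKM in proximal against 17.8 FPKM in distal cells, and ADM, the vasodilator adrenomedullin, had 2.91 FPKM in proximal cells and 0.730 in distal cells. ADM had at most 0.730 FPKM in either distal library and passed the level filter only through the proximal libraries. The count of 2 thus leans in part on the filter. EGLN3, an oxygen sensor enzyme, had 6.07 FPKM in proximal against 2.68 FPKM in distal cells, and VEGFA, a vessel growth factor, had 155 FPKM in proximal cells and 162 in distal cells.

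Cell cycle genes were on balance slightly higher in proximal cells. Of 47 mitosis genes 38 lay above 0, where 63% of all genes did, with a median of 0.24, and of 47 genes of DNA replication 42 did, with a median of 0.17. CCNB2, a mitotic cyclin, was the one past 2-fold, where 2.18% of all genes were higher. It had 105 FPKM in proximal against 35.4 FPKM in distal cells (ratio 2.95, 2.77 to 3.14). The partner of CCNB2, CDK1, had 64.5 FPKM in proximal cells and 50.8 in distal cells. CDC20, an activator of chromosome separation, had 79.9 FPKM in proximal against 49.8 FPKM in distal cells. CCNE1, the cyclin of entry into S phase, had 7.01 FPKM in proximal cells and 3.81 in distal cells. TOP2A, a topoisomerase of dividing cells, had 62.9 FPKM in proximal against 70.1 FPKM in distal cells, and MKI67 had 3.52 FPKM in proximal cells and 2.80 in distal cells. Scaling by median ratios brought the medians of mitosis and DNA replication to 0.14 and 0.06. That they stayed above 0 carries little weight, since the scalings moved the all-gene median by only -0.10 and 0.01. Among immediate early and stress genes PLK3, a stress-response kinase, was the one of 19 past 2-fold, against the same 2.18% of all genes. It had 18.1 FPKM in proximal against 2.43 FPKM in distal cells. JUN had 40.9 FPKM in proximal cells and 24.9 in distal cells.

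**Figure D3:**
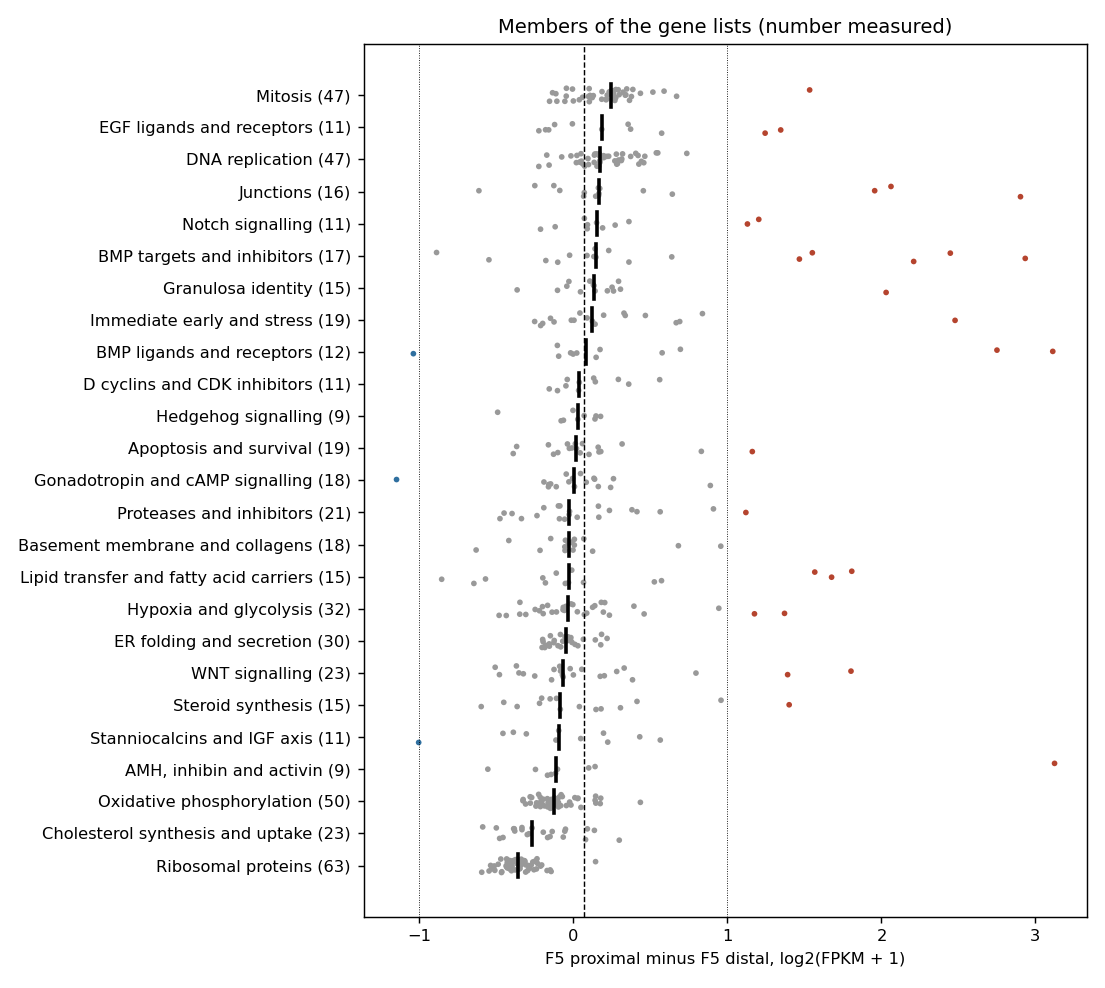
Difference between F5 proximal and F5 distal cells (log2(FPKM + 1)) for the kept members of each gene list with at least 9 of them, 1 point per gene, with a black bar at the list's median, a dashed line at the all-gene median of 0.07 and dotted lines at 2-fold. Medians run from -0.36 for ribosomal proteins to 0.24 for mitosis, all inside the dotted lines.

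Scattered genes of other lists also passed 2-fold. PLAU, the urokinase protease that opens matrix, was the one of 21 kept proteases and inhibitors (2.18% of all genes were higher). It had 4.19 FPKM in proximal cells and 1.39 in distal cells. BMF, a promoter of cell death, was the one of 19 kept apoptosis genes, against the same 2.18% of all genes. It had 15.1 FPKM in proximal against 6.20 FPKM in distal cells. None of 11 kept D cyclins and inhibitors of cyclin-dependent kinases passed 2-fold, and CCND1 had 34.1 FPKM in proximal cells and 35.3 in distal cells. Among the 15 genes with the highest differences were also MRC2, an endocytic receptor for collagen, at 24.2 FPKM in proximal against 3.01 FPKM in distal cells, and B3GNT7, a transferase that extends keratan sulfate chains, at 13.8 FPKM in proximal cells and 1.28 in distal cells. TMEM184A, a membrane protein, had 10.5 FPKM in proximal against 0.409 FPKM in distal cells.

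On the distal side the clearest gene was FMOD, fibromodulin, a small leucine-rich proteoglycan that binds collagen (chromosome 26). It had 36.6 FPKM in proximal against 115 FPKM in distal cells, a ratio of 0.318 (0.301 to 0.337) on 1589 proximal and 5200 distal reads. The other 2 kept genes of that family were also lower in proximal cells: PODN had 15.9 FPKM in proximal cells and 25.8 in distal cells, and PRELP 15.9 FPKM in proximal against 19.5 FPKM in distal cells. STC1, a hormone of mineral balance, had 51.0 FPKM in proximal cells and 103 in distal cells. TPBG, a surface protein that restrains WNT signals, had 6.85 FPKM in proximal against 15.3 FPKM in distal cells, and CNN2, a calponin that binds actin, had 3.86 FPKM in proximal cells and 9.83 in distal cells. The rest of the 15 lowest genes had smaller differences, down to a size of 0.72 on the log2(FPKM + 1) scale. They included SPINK4, a protease inhibitor, at 9.48 FPKM in proximal against 19.7 FPKM in distal cells, and DPP10, a partner of potassium channels, at 23.3 FPKM in proximal cells and 39.8 in distal cells. Of the matrix genes of higher level 2 hardly differed: SPARC had 10224 FPKM in proximal against 9760 FPKM in distal cells, and COL4A3 had 301 FPKM in proximal cells and 313 in distal cells. NID2 was lower, at 149 FPKM in proximal against 200 FPKM in distal cells, a ratio of 0.746 (0.728 to 0.765). FN1 had 308 FPKM in proximal cells and 358 in distal cells. Of 18 kept genes of basement membrane and collagens 6 lay above 0 and 12 below, against 63% and 36.9% of all genes. None passed 2-fold on the log2(FPKM + 1) scale. AGRN, the proteoglycan agrin, came closest with a difference of 0.96, at 21.3 FPKM in proximal against 10.5 FPKM in distal cells.

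Markers of theca, vessels and leukocytes ranged from 0 to clearly detected, on both sides. Of 12 markers of theca and stroma found, DCN, LUM and PDGFRA were at 0 in both libraries, while CYP17A1, the androgen-forming enzyme of theca cells, had 2.59 FPKM in proximal against 2.17 FPKM in distal cells, and MYH11, a smooth muscle myosin, had 4.81 FPKM in proximal cells and 4.03 in distal cells. The list summed to 10.4 FPKM in proximal cells and 8.63 in distal cells. Of 14 endothelial markers the list summed to 104 FPKM in proximal against 66.7 FPKM in distal cells. EMCN, a vessel sialomucin, had 10.6 FPKM in proximal cells and 0.986 in distal cells, and CDH5, the endothelial cadherin, had 0.358 FPKM in proximal against 0.0254 FPKM in distal cells. The vessel receptors KDR, TEK and FLT1 and the clotting factor VWF were below 0.1 FPKM in both. TIE1, another vessel receptor, had 5.10 FPKM in proximal against 4.68 FPKM in distal cells, PECAM1, a vessel adhesion protein, had 5.31 FPKM in proximal cells and 3.98 in distal cells, and EGFL7, a secreted vessel factor, had 51.2 FPKM in proximal cells and 49.6 in distal cells. Of the 5 kept markers EMCN and CLDN5 passed 2-fold, both with the higher value in proximal cells, where 2.18% of all genes were higher. EMCN had at most 0.986 FPKM in either distal library and passed the level filter only through the proximal libraries. That count thus leans in part on the filter. Of 12 leukocyte markers SPI1 and CD4 were at 0, PTPRC had 0.242 FPKM in proximal against 0.174 FPKM in distal cells, and the list summed to 83.4 FPKM in proximal cells and 74.0 in distal cells. Most of that sum came from the gene named II, the invariant chain of MHC class II, with 65.9 FPKM in proximal cells and 65.4 in distal cells. IRF8, a transcription factor listed there, had 13.4 FPKM in proximal against 6.47 FPKM in distal cells. Of 9 blood cell markers the sum was 12.4 FPKM in proximal against 6.24 FPKM in distal cells. The part of such cells in the other differences was not tested, and in bulk RNA fewer cells of a type cannot be told apart from less RNA per cell.

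The F1 libraries are separate measurements and show how far these genes differ by position in a later follicle, although the labels do not tell whether the same hens gave both. There 580 genes (5.18%) were at least 2-fold higher and 34 genes (0.303%) lower in proximal cells, with an all-gene median of 0.20. Of the 244 genes higher in F5 proximal cells 153 (62.7%) were also at least 2-fold higher in F1 proximal cells, which is 26.4% of the F1 set. The level filter averages the F5 and F1 libraries together, and 100 of the 244 had less than 1 FPKM in F5 distal cells. Such a gene is kept more readily where both proximal libraries are high, so this share leans partly on the filter. Of the 36 lower genes 3 were at least 2-fold lower there. All 15 of the genes with the highest F5 differences were higher in F1 proximal cells, where 77.5% of all genes were, and 14 of them at least 2-fold. The exception, HIST1H46, is a histone gene whose reads may be shared with near-identical copies. It had 31.0 FPKM in F5 proximal and 5.36 FPKM in F5 distal cells, and 44.5 FPKM in F1 proximal and 35.4 FPKM in F1 distal cells.

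On the distal side, of the 15 genes with the lowest F5 differences 7 were lower in F1 proximal cells, where 22.4% of all genes were, and FMOD alone at least 2-fold, with 47.2 FPKM in F1 proximal and 103 FPKM in F1 distal cells. STC1 had 672 FPKM in F1 proximal and 1221 FPKM in F1 distal cells, levels above those of F5. CYP11A1 had 322 FPKM in F1 proximal and 633 FPKM in F1 distal cells. WNT4, near equal in F5, had 237 FPKM in F1 proximal and 8.72 FPKM in F1 distal cells. CHRDL1, 13.1 times as high in proximal as in distal cells of F5, had 15.3 FPKM in F1 proximal and 21.1 FPKM in F1 distal cells, and CLDN5 had 121 FPKM in F1 proximal and 109 FPKM in F1 distal cells. The differences between follicles were not tested.

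**Figure D4:**
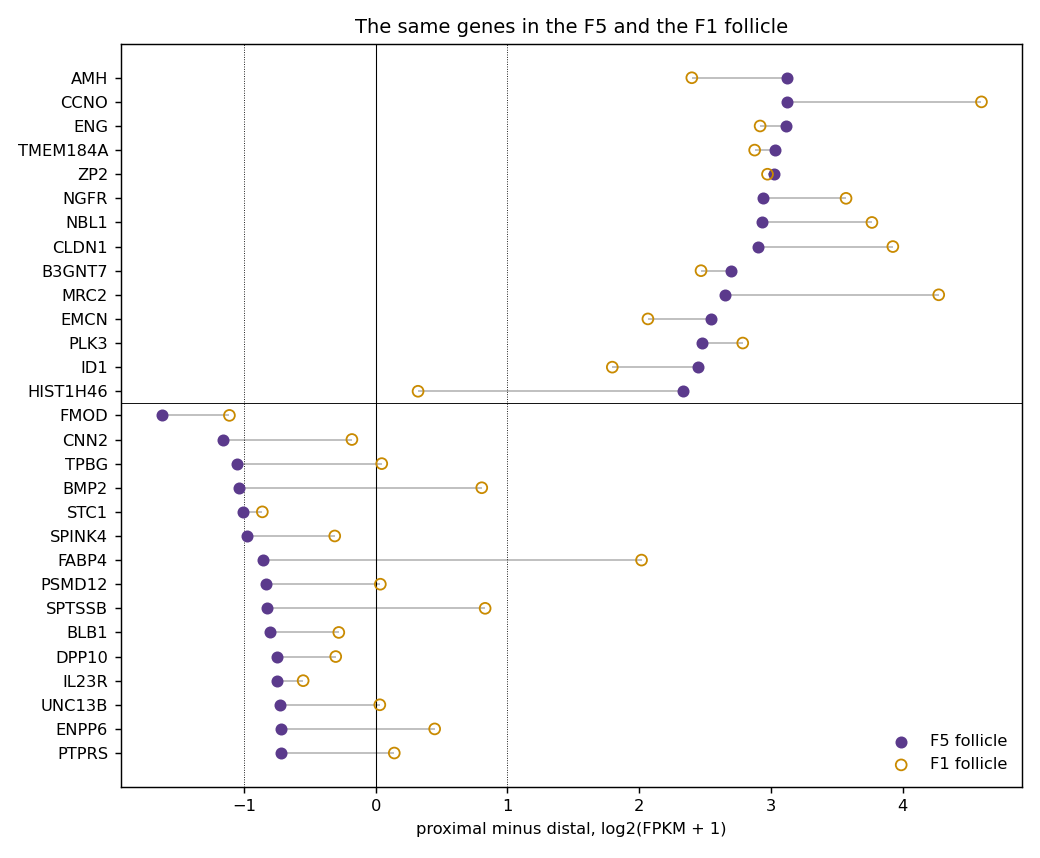
Difference between proximal and distal cells (log2(FPKM + 1)) in the F5 follicle (filled points) and the F1 follicle (open points) for 14 of the 15 genes with the highest (top) and the 15 with the lowest F5 difference (bottom), with dotted lines at 2-fold. All 14 upper genes drawn are above 0 in both follicles, whereas 7 of the 15 lower genes are below 0 in F1.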

How the data were processed

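Poly-A selected RNA of hen granulosa cells was sequenced by the authors as 1 library per group, with no replicates. Expression was deposited by the authors as FPKM, and the log2 fold change columns deposited beside it were not used. The submitters' processing notes name TopHat2 2.0.12 and HTSeq 0.6.1. The build and whether counting used strand are not given in the sources at hand. The extraction protocol in the labels also names 6 mm follicles, which were not analysed here. The table had 19309 genes, of which 17108 had Ensembl identifiers and 2201 were loci numbered by the authors, plus 2 rows without a gene that were left out. A symbol was used for 11861 genes, where the deposited name was unique, stood in the RefSeq table of assembly GRCg7b and fitted its chromosome.

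Library totals and whole reads were recovered from the FPKM ratios (tolerance 1e-08, tested on simulated data). In the simulation reads were exact for 96.5% of genes with reads. The totals are fixed only up to a common factor. The simulation used these same totals, so it could not check that factor, on which the counting intervals also rest. The F5 proximal library had 16654793 reads and F5 distal 17351242, whereas F1 proximal had 18020270 and F1 distal 13948790, of which 97.3% to 97.9% were recovered in genes. Differences are proximal minus distal in log2(FPKM + 1) over genes that averaged at least 1 FPKM across the 4 libraries, described by a limit of 2-fold, since 1 library per group allows no test. Ratios of FPKM carry 95% exact (Clopper-Pearson) intervals, with a floor of 3 reads per library where a side had 0. Intervals cover counting error only.

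The gene lists were chosen with earlier results of these data known, as was the comparison itself. Of 845 listed genes 703 were found, and 65 ribosomal protein genes were added by name. Genes were named by a rule: with a symbol that averaged at least 5 FPKM over the F5 libraries, the 15 highest and 15 lowest differences, and in each list every gene past 2-fold, the 4 with the largest differences and the 3 with the highest level. Some genes that the rule takes are not reported here. Further list members and genes with a stated role were added after their values were seen. Among these, BMP6, NOBOX, ZP4, BDNF and HEYL missed the level filter and had the higher value in proximal cells. Genes that missed the filter but reached 1 FPKM in an F5 library went both ways, with 89 at least 2-fold higher and 26 lower. Alternatives were other pseudocounts, filters and scalings. Python 3.11.15, numpy 2.4.6, pandas 2.3.3 and scipy 1.17.1 were used.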

Additional observations from a re-analysis of the deposited data

Results flagged for a closer look

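Among the 15 genes with the lowest F5 differences, 4 differed in the opposite direction in the F1 follicle, with counting intervals or bounds on opposite sides of equality. BMP2 had a difference of -1.04 (log2) in F5, and in F1 it had 1.47 FPKM in proximal against 0.412 FPKM in distal cells. FABP4 had a difference of -0.86 in F5, and in F1 it had 3.05 FPKM in proximal cells and was at 0 in distal cells, a ratio of at least 6.71. SPTSSB, a small subunit of the enzyme that starts sphingolipid synthesis, had a difference of -0.83 in F5, with 9.05 FPKM in proximal cells and 16.8 in distal cells, and in F1 it had 0.778 FPKM in proximal cells and was at 0 in distal cells. ENPP6, a choline phosphodiesterase, had a difference of -0.72 in F5, with 6.61 FPKM in proximal against 11.6 FPKM in distal cells, and in F1 it had 7.45 FPKM in proximal cells and 5.20 in distal cells. With 1 library per group the difference between the follicles was not tested. Past 2-fold in both follicles and in opposite directions were 6 genes, none with a symbol and none above 17 reads in any library.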

How the results depend on the processing

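The count of genes past 2-fold depended on the treatment of low values. The 244 higher genes became 68 with a pseudocount of 5 FPKM, 404 with 0.1 FPKM and 105 with a mean of at least 5 FPKM. The 36 lower genes became 1, 76 and 8 under those settings, and 62 with no filter. Under the other settings the counts stayed within 1.5 times, at 191 to 333 higher and 35 to 44 lower genes. Scaling by median ratios moved the all-gene median to -0.04 and the share of higher genes among those past 2-fold to 81.3%, against 87.1%. It also turned the medians of BMP ligands and receptors (to -0.03), D cyclins (to -0.07), apoptosis (to -0.09), gonadotropin signalling (to -0.11) and Hedgehog signalling (to -0.03) below 0, and with no filter the WNT median came to 0.03. No named gene past 2-fold changed sign under any of these settings, but this could not have come out otherwise. Pseudocounts and filters keep a sign, and the scalings moved the all-gene median by only -0.10 and 0.01. No paired analysis was possible because each group is 1 library, and for the same reason no replicate could be left out. Short and low genes have few reads, so their ratios are the least certain. Of the 244 higher genes 100 had less than 1 FPKM in F5 distal cells. Counts of higher genes in the lists can therefore lean on the level filter.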

Other observations

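Of the 36 genes lower in proximal cells 26 were Ensembl genes without a usable symbol and 2 were loci numbered by the authors. Another 650 genes missed the level filter but reached 1 FPKM in an F5 library, of which 89 were at least 2-fold higher and 26 lower in proximal cells. Among genes outside the lists, singled out after their values were seen, PIK3IP1, an inhibitor of PI3 kinase, had 79.4 FPKM in proximal against 30.2 FPKM in distal cells. H-RAS, a small GTPase of growth signalling, had 108 FPKM in proximal cells and 44.5 in distal cells, and MYCL, a MYC relative, had 38.7 FPKM in proximal against 13.4 FPKM in distal cells. GMNN, geminin, which blocks repeated firing of replication origins and is related to MCIDAS, had 19.9 FPKM in proximal cells and 9.10 in distal cells.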
